A study of Mus musculus with 12 samples.

Results

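The fibroblast growth factor (FGF) homologous factors, the FGF receptors and 3 secreted FGFs were followed in ribosome-bound RNA of hippocampal CA1 pyramidal neurons from wild-type and Fmr1-/y mice, which lack FMRP, the RNA-binding protein lost in fragile X syndrome. The set holds 10 of the 24079 genes in the deposited counts, found by their gene symbols: Fgf11, Fgf12, Fgf13 and Fgf14 (the 4 homologous factors, or FHFs), Fgf1, Fgf2 and Fgf9 (3 secreted ligands), and Fgfr1, Fgfr2 and Fgfr3 (3 receptors). All 10 were among the 17823 genes that had at least 15 reads in total and were tested. Fgf2 passed that filter with 31 reads over all libraries, and the other 9 members had between 10609 and 54888 reads.

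All mice were Wfs1-CreERT2:RiboTag males on a C57BL/6J background, aged 2 to 6 months. In this line a Cre recombinase under the Wfs1 promoter, switched on by tamoxifen (100 mg/kg on 3 days), adds a hemagglutinin (HA) tag to the ribosomal protein Rpl22. Within the hippocampus Wfs1 marks CA1 pyramidal cells, whose ribosomes therefore carry the tag. Hippocampi were taken 1 week later and tagged ribosomes were immunoprecipitated from the whole hippocampal lysate. The groups were 6 wild-type libraries and 6 Fmr1-/y libraries, and each library was a pool of 4 to 6 mice. The labels call these pools biological replicates, and the spread given below is that between pools, not between single mice.

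FHFs resemble FGFs in sequence but lack a signal for secretion and stay inside the cell. There they bind the cytoplasmic tail of voltage-gated sodium channels, set channel inactivation, and help to place channels at the axon initial segment. Secreted FGFs act from outside through the receptor tyrosine kinases FGFR1 to FGFR4, which signal through the adaptor FRS2 to the MAP kinase cascade, with Sprouty and Spred proteins as feedback inhibitors and ETS factors such as ETV5 as transcriptional targets. In the brain, neurons express the FHFs and FGFR1, whereas astrocytes are a main site of FGFR3 expression.

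The 4 FHF genes are relatives, so whether their reads could be told apart bears on every value below. For that reason, the stretch of 1 read length (50 bases) in which the Fgf11 coding sequence is most like those of the other FHFs is shown. It has the fewest mismatches summed over the closest stretch of each other FHF. It was read from GENCODE transcripts on GRCm38, the build also called mm10, and capitals mark the bases that differ among the 4 genes.
Fgf11: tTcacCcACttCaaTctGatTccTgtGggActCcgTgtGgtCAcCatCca
Fgf12: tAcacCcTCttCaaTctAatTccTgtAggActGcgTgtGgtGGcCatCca
Fgf13: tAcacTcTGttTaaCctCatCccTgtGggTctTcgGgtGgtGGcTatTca
Fgf14: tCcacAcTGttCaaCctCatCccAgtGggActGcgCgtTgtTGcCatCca
These stretches lie at coding bases 301 to 350 of Fgf11, 307 to 356 of Fgf12, 295 to 344 of Fgf13 and 316 to 365 of Fgf14. They differ at 18 of 50 positions, 15 of them the last base of a codon. Against Fgf11, the mismatches numbered 7 for Fgf12, 15 for Fgf13 and 13 for Fgf14. Over 1 whole coding sequence per gene, any 50 bases of 1 FHF had at least 5 mismatches to each other FHF. That smallest number and the longest identical run over all coding transcripts, 15 bases, were both between Fgf12 and Fgf14. Between receptors, the longest such run was 26 bases, shared by Fgfr1 and Fgfr3. Over 1 coding sequence per receptor, any 50 bases had at least 3 mismatches. The authors discarded alignments with more than 3 mismatches, so an error-free read from within these FHF coding sequences could not have been counted for another FHF. For the receptors the smallest number of mismatches equals that limit. Untranslated regions were not compared.

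The labels were first checked against the targeted gene. Reads of Fmr1 numbered 1971 to 2608 per library in wild-type mice. In Fmr1-/y mice 5 libraries held 0 reads of it, and replicate 2 held 1 read. Between 39400980 and 65565479 reads per library were counted on genes. The marker of the tagged cells, Wfs1, had mean levels of 1272 ± 175 and 1055 ± 103 CPM in wild-type and Fmr1-/y mice (SD, n = 6 each), where CPM are counts scaled to a common library size by edgeR's TMM method. Markers of other cells were also present. The summed level of 7 astrocyte markers was 1855 to 2167 CPM in wild-type and 1992 to 2916 CPM in Fmr1-/y libraries, and that of 5 CA1 markers was 1987 to 2623 CPM and 1856 to 2375 CPM. All 7 astrocyte markers had the higher mean in Fmr1-/y libraries and all 5 CA1 markers the lower, and none of these had a mean of 0. The permutation tests of these sums (exact, two-sided) gave p = 0.026 for astrocyte, p = 0.0346 for CA1 and p = 0.0476 for endothelial markers, each 0.159 after adjustment over the 10 marker lists. The 3 endothelial markers, all with the higher mean in Fmr1-/y libraries, summed to 19.0 to 29.6 CPM in wild-type and 24.1 to 38.7 CPM in Fmr1-/y libraries. Choroid plexus markers, led by Ttr with mean levels of 8323 CPM and 11319 CPM in wild-type and Fmr1-/y libraries, had an adjusted permutation p of 0.168. In immunoprecipitates of pooled tissue, the number of cells of a type, the RNA per cell and the purity of the precipitate cannot be told apart.

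In wild-type libraries Fgf13 had the highest level of the 10 genes when CPM were divided by exon length in kilobases, at 23.3 ± 2.44 CPM per kilobase (SD, n = 6). Its libraries, 18.9 to 26.0, did not overlap those of any other member. A second tier held Fgf12 at 11.2 ± 1.29, Fgf11 at 10.8 ± 0.76, Fgfr1 at 10.6 ± 0.593 and Fgfr3 at 10.2 ± 0.732 CPM per kilobase, and neighbours in that order overlapped. A lower tier held Fgf1 at 5.02 ± 0.477, Fgf14 at 4.63 ± 0.316 and Fgf9 at 4.48 ± 0.356, again overlapping. By this length Fgfr2 lay below them at 3.18 ± 0.519 CPM per kilobase, with libraries from 2.74 to 3.92, under the 4.05 of the lowest Fgf9 library. Fgf2 was at 0.0041 CPM per kilobase. With the longest transcript as the length, Fgf13 was still first, but Fgfr1 came second at 20.8, ahead of Fgfr3 at 17.2 and Fgf12 at 16.8 CPM per kilobase, while Fgf11 at 10.8 no longer overlapped Fgf12. Fgfr2 then stood at 7.40, above Fgf1 at 6.89, Fgf9 at 5.79 and Fgf14 at 5.36 CPM per kilobase, and its lowest library (6.39) exceeded the highest of Fgf9 (6.29). The order below Fgf13, the place of Fgfr2 included, therefore depended on the length used.

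**Figure D1:**
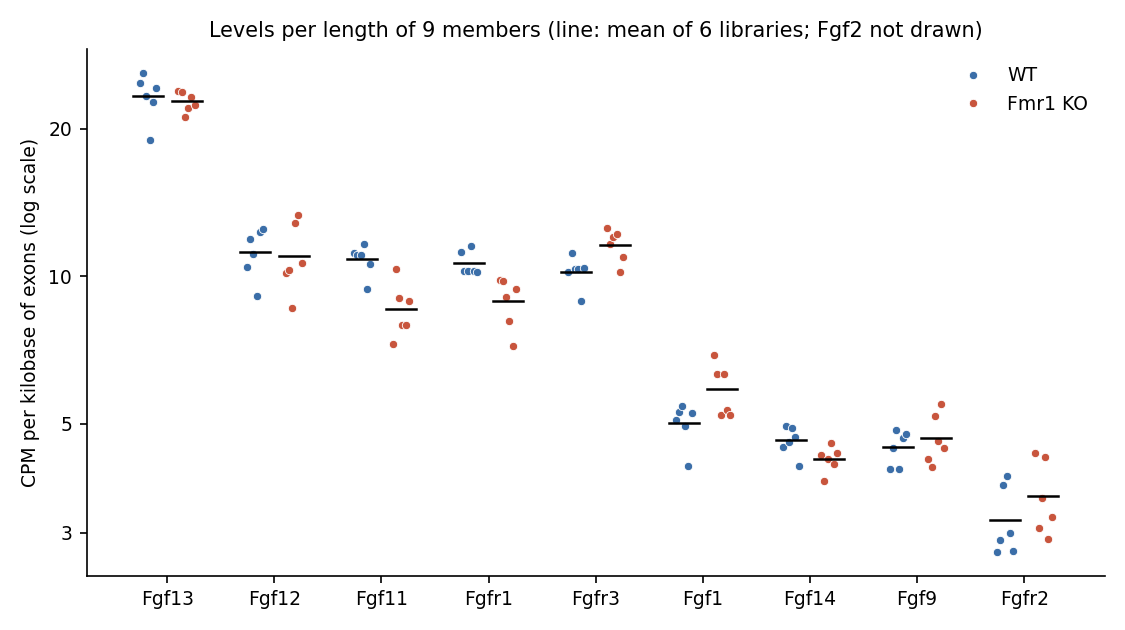
Levels of 9 members as TMM-normalized CPM per kilobase of exons, on a log scale, with 1 point per library and a line at the mean of 6 libraries (wild-type in blue, Fmr1-/y in red). Fgf13 stands above all others at 23.3 CPM per kilobase in wild-type libraries. Fgf2, at 0.0041, is not drawn.

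In the comparison of genotypes, none of the 10 members reached an adjusted p below 0.05 when edgeR's quasi-likelihood F test was run over all genes, as 0.0224% of the genes tested did. At an unadjusted p under 0.05 there were 4 members, against 7.96% of all genes: Fgf11 and Fgfr1 were lower in Fmr1-/y libraries (3.67% of all genes) and Fgf1 and Fgfr3 were higher (4.29%). DESeq2's Wald test on the same counts called 1 member, Fgf11, where it called 0.571% of genes, 0.36% in the lower direction. Those shares are over the 14713 genes with an adjusted p in DESeq2, and Fgf2 had none. The authors' own DESeq2 comparison of these libraries had already named Fgf11 as differentially regulated, so this call is not a separate finding. The edgeR fold change was below 0 for 5 members and above 0 for 5 (48.6% and 51.4% of all genes). Every Fmr1-/y library lay below every wild-type library for 1 member, Fgfr1, as for 0.41% of genes. No member showed the opposite separation, and 0.623% of genes separated in either direction.

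**Figure D2:**
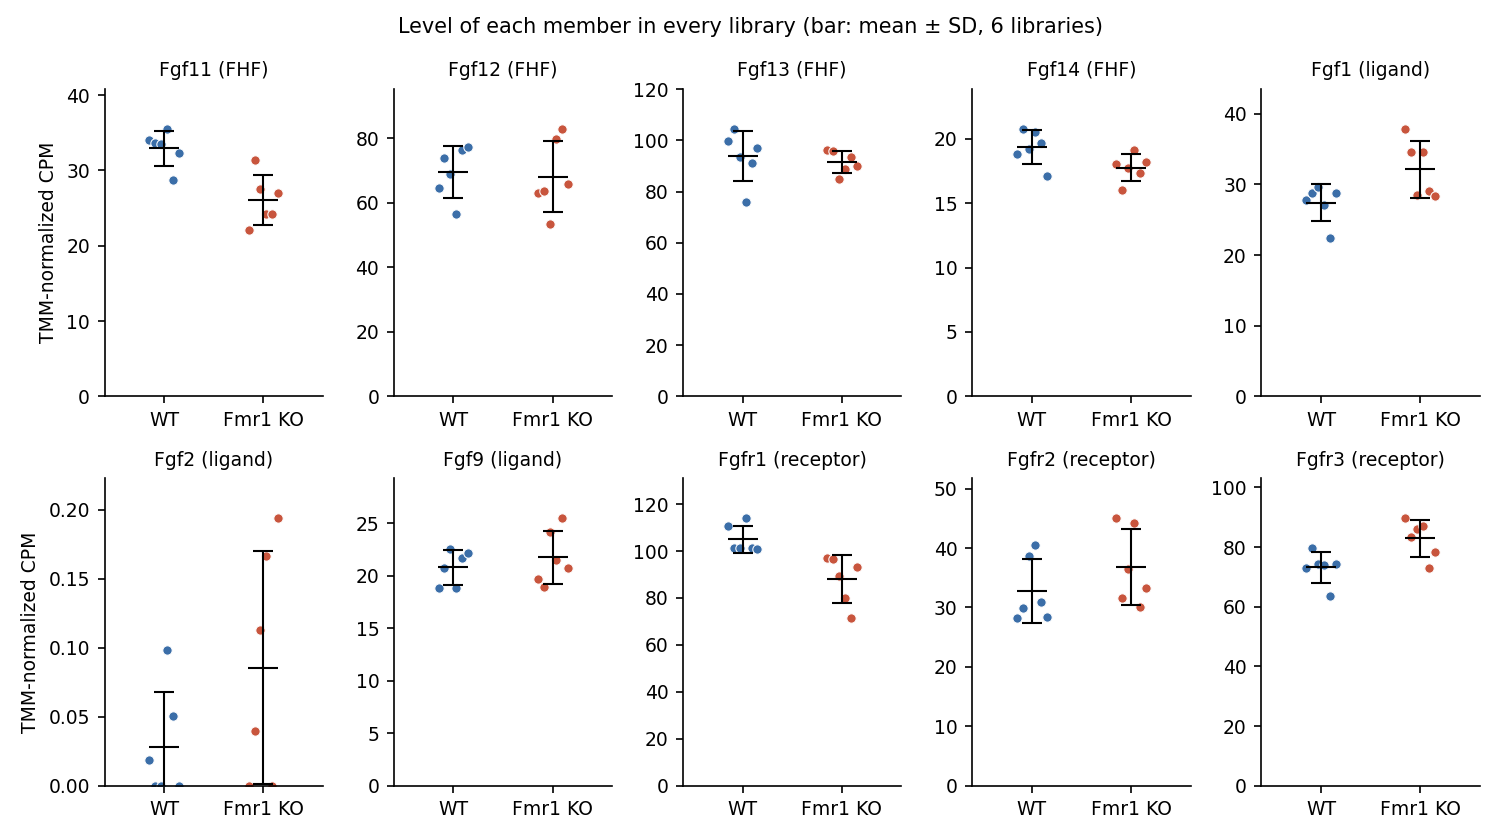
TMM-normalized CPM of each member in every library, 1 panel per gene with its own axis from 0, with bars for the mean ± SD of 6 libraries per genotype. All Fgfr1 points of Fmr1-/y libraries (71.3 to 96.9 CPM) are under the lowest wild-type point (100.7 CPM), and 5 of 6 Fgf11 points are under the lowest wild-type point (28.7 CPM).

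Among the FHFs, Fgf11 (chromosome 11, 69796068 to 69802944, minus strand, GRCm38) was the member with the smallest p. It ranged from 28.7 CPM through a median of 33.6 to 35.5 CPM in wild-type libraries, and from 22.2 through 25.6 to 31.5 CPM in Fmr1-/y libraries. Of the Fmr1-/y libraries, 5 lay below all wild-type libraries, and replicate 2, the highest, overlapped them. The means were 33.0 ± 2.31 and 26.1 ± 3.30 CPM (SD, n = 6 each), and the fitted level in Fmr1-/y was 79.1% of wild-type with a 95% interval from 69.8% to 89.8%. The log2 fold change was -0.34 (SE 0.086, 95% interval -0.52 to -0.16), with an adjusted p of 0.259 in edgeR and rank 74 of all genes by p. In DESeq2 Fgf11 fell by 0.34 on the log2 scale, with an adjusted p of 0.0383. Over the fits that each left out 1 library the edgeR log2 fold change ran from -0.40 to -0.29. It was -0.34 with a score of the astrocyte markers in the fit and -0.29 with a score of the CA1 markers (adjusted p 0.809 and 0.714 in edgeR). Astrocyte markers had the higher means in Fmr1-/y libraries and CA1 markers the lower, so these fits do not separate cell content from genotype. The part of CA1 or astrocyte RNA in the Fgf11 difference was not tested. The spread of Fgf11 over wild-type libraries was 7.01% of the mean, where counting alone gives 2.61%.

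Fgf12 (chromosome 16, 28157783 to 28753243, minus strand) overlapped between genotypes throughout. It ran from 56.5 through 71.5 to 77.3 CPM in wild-type and from 53.6 through 64.8 to 82.9 CPM in Fmr1-/y libraries. Its log2 fold change of -0.03 had a 95% interval from -0.25 to 0.18 and an adjusted p of 0.9747 in edgeR. Its sign turned without Fmr1-/y replicate 3 (0.029) and with the astrocyte score in the fit (0.038), so no direction is given for it.

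Fgf13 (chromosome X, 59062139 to 59585572, minus strand), the most abundant FHF, ran from 76.1 through 95.4 to 104 CPM in wild-type libraries. In Fmr1-/y libraries it ran from 84.8 through 91.7 to 96.1 CPM, inside the wild-type range. The log2 fold change was -0.04 (95% interval -0.18 to 0.11, adjusted p 0.950 in edgeR), and with the CA1 score in the fit it was 0.05.

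Fgf14 (chromosome 14, 123974441 to 124677686, minus strand), the FHF gene whose mutation underlies an inherited cerebellar ataxia in people, had 17.1, 19.4 and 20.7 CPM as lowest, median and highest wild-type values. The Fmr1-/y values were 16.0, 17.9 and 19.1 CPM, and 1 library lay below the wild-type range. The log2 fold change was -0.13 (95% interval -0.28 to 0.03, adjusted p 0.739 in edgeR). The intervals of Fgf12, Fgf13 and Fgf14 all reached past 0, and differences between the FHFs in their genotype effect were not tested.

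By length, the 4 FHFs summed to 50.01 ± 3.09 CPM per kilobase in wild-type and 46.6 ± 2.09 in Fmr1-/y libraries (SD, n = 6 each). Fgf13 made up 46.5% ± 2.23 of that sum in wild-type and 48.9% ± 1.97 in Fmr1-/y libraries. The share of Fgf11 was 21.7% ± 2.39 and 18.4% ± 2.44, with libraries of 19.2% to 26.1% and 15.9% to 21.4%, which overlap. Fgf12 took 22.4% ± 1.92 and 23.5% ± 3.06, and Fgf14 took 9.29% ± 0.9997 and 9.13% ± 0.744. These shares are given as a description, without a test, and rest on exon lengths merged over transcripts. They were not computed with the longest transcript, where wild-type Fgf11, Fgf12 and Fgf13 stood at 10.8, 16.8 and 37.5 CPM per kilobase.

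Fgf1 (chromosome 18, 38838672 to 38929470, minus strand), a secreted FGF that binds all FGF receptors and has no classical signal peptide, had 22.5, 28.3 and 29.7 CPM as lowest, median and highest wild-type values. In Fmr1-/y libraries these were 28.4, 31.8 and 37.8 CPM, and replicates 1, 2 and 4 lay above all wild-type libraries. The means were 27.4 ± 2.60 and 32.2 ± 4.01 CPM (SD, n = 6 each), a log2 fold change of 0.23 (SE 0.091, 95% interval 0.04 to 0.42) with an adjusted p of 0.515 in edgeR. The same 3 libraries had the highest astrocyte sums, 2916, 2670 and 2446 CPM. With the astrocyte score in the fit the log2 fold change of Fgf1 was 0.05 (SE 0.086), and without replicates 1 and 2 of Fmr1-/y it was 0.13 (SE 0.093). That pair was chosen after the data were seen and held the highest Fgf1 values, so leaving it out had to lower the fold change. All 7 astrocyte markers had the higher mean in Fmr1-/y libraries, so the fit with their score does not separate astrocyte RNA from genotype. The part of astrocyte RNA in the Fgf1 difference was not tested.

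Fgf9 (chromosome 14, 58070671 to 58112854, plus strand), a secreted FGF made by neurons, overlapped between genotypes, with 18.8, 21.3 and 22.6 CPM in wild-type and 19.0, 21.1 and 25.5 CPM in Fmr1-/y libraries as lowest, median and highest values. The log2 fold change was 0.06 (95% interval -0.12 to 0.25, adjusted p 0.929 in edgeR). It was 0.20 (SE 0.093) with the astrocyte score in the fit, and it ran from 0.013 (without Fmr1-/y replicate 5) to 0.10 (without Fmr1-/y replicate 2) when single libraries were left out.

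Fgf2 (chromosome 3, 37348477 to 37410106, plus strand), a ligand that astrocytes are known to make, had few reads in these libraries. Wild-type replicates 1 to 6 had 1, 0, 0, 4, 2 and 0 reads, and Fmr1-/y replicates 1 to 6 had 0, 2, 5, 8, 0 and 9 reads. The sums were 7 and 24 reads, its adjusted p was 0.817 in edgeR, and no difference was detectable at this depth. Of the exon bases of Fgf2, 640 overlap the gene Nudt6 on the opposite strand. Libraries and counting kept the strand, which assigns reads of Nudt6 away from Fgf2. In GENCODE, Gm43439 shares 255 exon bases with Fgf2 on the same strand, and there the strand does not tell reads apart.

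Fgfr1 (chromosome 8, 25518759 to 25575718, plus strand), the receptor best known from neurons, was the only member whose genotypes did not overlap. Its lowest, median and highest wild-type values were 100.7, 101.5 and 113.9 CPM, and its Fmr1-/y values were 71.3, 91.3 and 96.9 CPM. Replicates 4 and 5 of Fmr1-/y were lowest, at 80.1 and 71.3 CPM. The means were 105 ± 5.86 and 87.9 ± 10.2 CPM (SD, n = 6 each), and the fitted level in Fmr1-/y was 83.7% of wild-type with a 95% interval from 75.0% to 93.5%. The log2 fold change was -0.26 (SE 0.075, 95% interval -0.41 to -0.10), with an adjusted p of 0.333 in edgeR and 0.119 in DESeq2. It was -0.20 without Fmr1-/y replicate 5, -0.35 with the astrocyte score in the fit, and -0.24 with the CA1 score. The adjusted p in edgeR was 0.784 with the astrocyte score and 0.714 with the CA1 score. Both scores shifted with genotype, and the part of CA1 or astrocyte RNA in the Fgfr1 difference was not tested.

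Fgfr2 (chromosome 7, 130162451 to 130266808, minus strand), a receptor found in glia of the adult brain and oligodendrocytes among them, varied most between libraries of the abundant members, by 16.4% of the mean in wild-type libraries. Its values were 28.3, 30.5 and 40.4 CPM in wild-type and 30.1, 34.9 and 45.0 CPM in Fmr1-/y libraries. The log2 fold change was 0.16 (95% interval -0.09 to 0.42, adjusted p 0.809 in edgeR), and -0.05 with the CA1 score in the fit. It was 0.048 with the astrocyte score and 0.099 or 0.11 without Fmr1-/y replicate 1 or 4. Of its exon bases, 314 are shared with Ctbp2 on the same strand in GENCODE. Where the authors' gene models hold the same overlap, union mode counts reads there for neither gene.

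Fgfr3 (chromosome 5, 33721724 to 33737068, plus strand) had 63.7, 74.1 and 79.8 CPM as lowest, median and highest wild-type values. The Fmr1-/y values were 73.0, 84.7 and 89.6 CPM, and 4 of 6 libraries lay above all wild-type libraries. The means were 73.2 ± 5.24 and 82.9 ± 6.21 CPM (SD, n = 6 each), a log2 fold change of 0.18 (SE 0.067, 95% interval 0.04 to 0.32) with an adjusted p of 0.493 in edgeR. With the astrocyte score in the fit it was 0.10 (SE 0.075), and without replicates 1 and 2 of Fmr1-/y, chosen after the data were seen, it was 0.15 (SE 0.076). Replicate 3 of Fmr1-/y had 86.2 CPM of Fgfr3 at an astrocyte sum of 1992 CPM, inside the wild-type range of that sum. Fgfr3 was highest in Fmr1-/y replicate 1, which had the highest astrocyte sum. It was lowest in wild-type replicate 5, which had the lowest sum. The part of astrocyte RNA in the Fgfr3 difference was not tested.

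**Figure D3:**
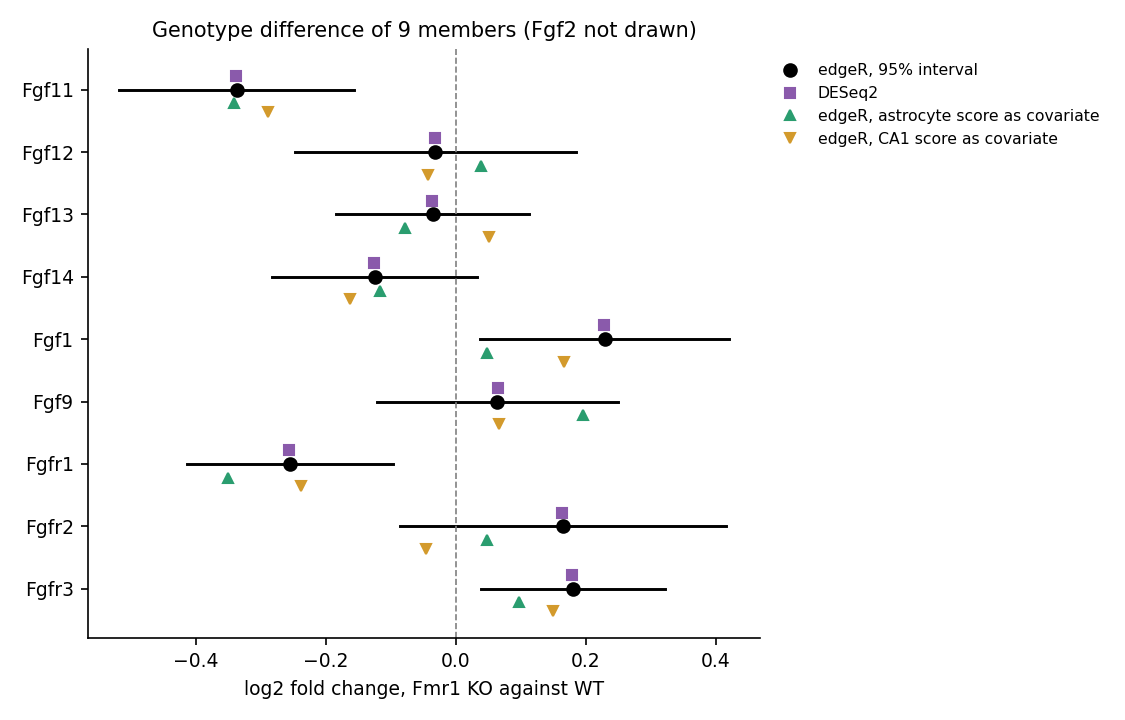
Log2 fold change of Fmr1-/y against wild-type for 9 members, with the edgeR estimate and its 95% interval in black, DESeq2 as squares, and edgeR with the astrocyte score (upward triangles) or the CA1 score (downward triangles) as a covariate. Fgf11, Fgf14 and Fgfr1 stay left of 0 in all 4 fits, and Fgf1, Fgf9 and Fgfr3 stay right of it. Fgf1 moves from 0.23 to 0.05 with the astrocyte score. Fgf2 is not drawn.

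The 3 receptors summed to 24.03 ± 1.21 CPM per kilobase in wild-type and 24.05 ± 2.09 in Fmr1-/y libraries (SD, n = 6 each). Within that sum Fgfr1 took 44.3% ± 1.93 in wild-type and 37.0% ± 2.68 in Fmr1-/y libraries. Fgfr3 took 42.6% ± 2.32 and 48.2% ± 1.53, and Fgfr2 took 13.2% ± 1.77 and 14.8% ± 1.80. The ratio of Fgfr3 to Fgfr1 per length was 0.964 ± 0.0866 in wild-type libraries (0.866 to 1.09) and 1.31 ± 0.131 in Fmr1-/y libraries (1.16 to 1.502). The ranges did not overlap. The ratio was chosen after the values of both genes were seen, so it is a description and carries no test. Shares and ratio rest on merged exon lengths. They were not computed with the longest transcript, where wild-type Fgfr1 stood at 20.8 and Fgfr3 at 17.2 CPM per kilobase. Without any 1 library, the mean ratio in Fmr1-/y was 1.32 to 1.396 times that of wild-type. The ratio was highest in Fmr1-/y replicates 4 and 5, at 1.502 and 1.412. The astrocyte sum was highest in Fmr1-/y replicates 1 and 2, whose ratios were 1.28 and 1.19. Both the ratio (0.866) and the astrocyte sum (1855 CPM) were lowest in wild-type replicate 5. The part of astrocyte RNA in the ratio was not tested.

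**Figure D4:**
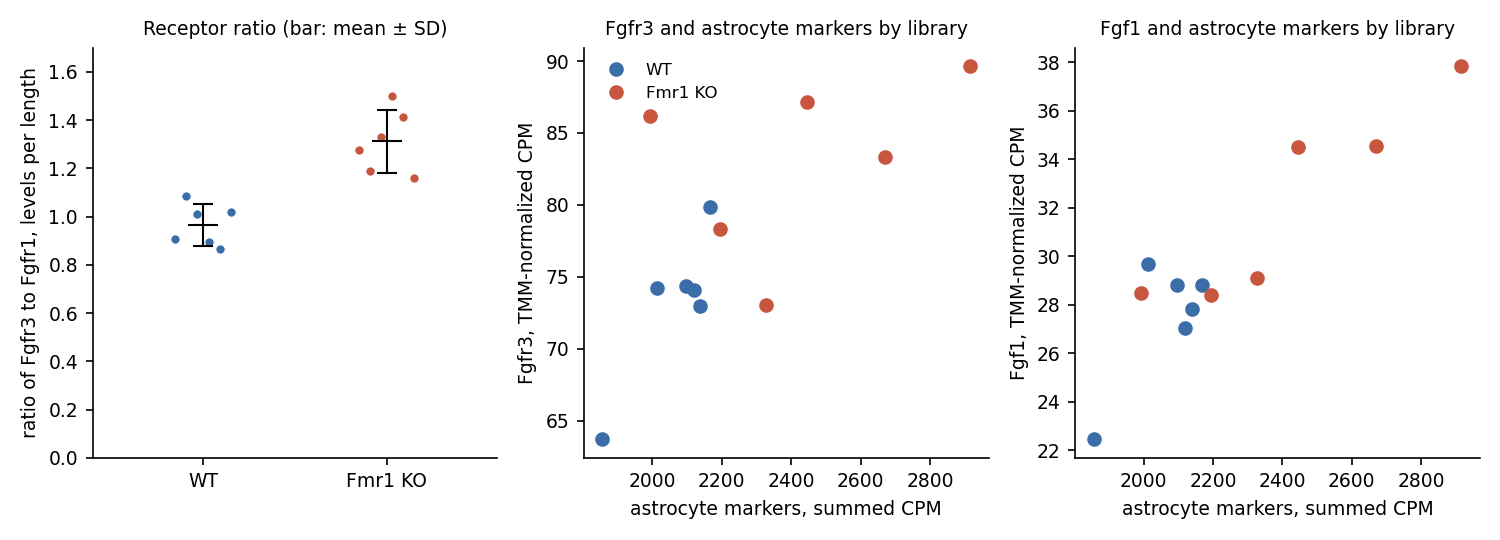
Left, ratio of Fgfr3 to Fgfr1 (levels per length) in each library with mean ± SD of 6 libraries, on an axis from 0. Middle and right, Fgfr3 and Fgf1 in TMM-normalized CPM against the summed CPM of 7 astrocyte markers, 1 point per library, on axes that do not start at 0. The Fmr1-/y ratios (1.16 to 1.502) all lie above the wild-type ratios (0.866 to 1.09), and the Fmr1-/y library with the highest astrocyte sum, 2916 CPM, has the highest Fgf1 and Fgfr3.

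The other genes of FGF signalling were taken from a list of 46 genes, of which 40 were tested and 6 (Fgf4, Fgf6, Fgf8, Fgf20, Fgf21 and Spry3) had no reads. None of the 40 passed edgeR's adjusted p, 4 had an unadjusted p under 0.05 (3 lower, 1 higher) where 7.96% of all genes did, and DESeq2 called 1 where it called 0.571% of genes. Several of the 40 had no adjusted p in DESeq2. The fold change was below 0 for 24 and above 0 for 16, with a median log2 fold change of -0.07 where the median of all genes was 0.0042. The gene called by DESeq2 was Etv1, which encodes an ETS transcription factor downstream of FGF receptors. Etv1 had 51.8 ± 3.01 CPM in wild-type (48.8 to 55.7) and 41.8 ± 3.67 CPM in Fmr1-/y libraries (37.8 to 46.5), and the genotypes did not overlap, as for 0.41% of all genes in that direction. Its log2 fold change was -0.31 (SE 0.070), with an adjusted p of 0.181 in edgeR and 0.00732 in DESeq2. The other tested ETS targets had edgeR values of -0.07 (Etv5) and 0.04 (Etv4). Spred2, a feedback inhibitor of the MAP kinase cascade, had 56.7 ± 5.77 and 46.0 ± 4.70 CPM, a log2 fold change of -0.30 with an adjusted p of 0.301 in edgeR. Cbl, a ubiquitin ligase that acts on activated receptors, had 10.9 ± 2.72 and 8.18 ± 1.75 CPM, with an adjusted p of 0.542 in edgeR. On the other side, Fgfrl1, a receptor without a kinase domain, had 11.8 ± 1.65 and 14.02 ± 1.12 CPM (adjusted p 0.542 in edgeR). Kl, which encodes the FGF23 co-receptor klotho and is strongly expressed in choroid plexus, had 224 ± 52.0 and 281 ± 72.5 CPM (adjusted p 0.634 in edgeR). The choroid plexus marker sum ranged from 6123 to 11481 CPM in wild-type and from 7994 to 16893 CPM in Fmr1-/y libraries, and its part in Kl was not tested.

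The partners of the FHFs were taken as 11 genes for sodium channel subunits, the axon initial segment scaffold and islet-brain 2, a kinase scaffold that binds FHFs. All 11 were tested and none passed the adjusted p in edgeR or DESeq2. At an unadjusted p under 0.05 there were 2, both lower, where 3.67% of all genes were. Scn1a, a pore-forming subunit, had 45.3 ± 5.09 and 39.9 ± 2.75 CPM in wild-type and Fmr1-/y libraries, a log2 fold change of -0.18 (adjusted p 0.575 in edgeR). Scn2b, an auxiliary subunit, had 579 ± 22.8 and 531 ± 34.0 CPM, a log2 fold change of -0.13 (adjusted p 0.589 in edgeR). The fold change was below 0 for all 4 pore-forming subunits tested, from -0.19 (Scn3a) to -0.05 (Scn2a1), where it was below 0 for 48.6% of all genes. With the astrocyte score in the fit it was -0.12 for Scn1a, and 0.0095 and 0.025 for Scn2a1 and Scn8a. The part of astrocyte RNA in these values was not tested. The scaffold genes Ank3 (ankyrin-G) and Sptbn4 (beta-IV spectrin) had log2 fold changes of 0.08 and 0.10, with adjusted p of 0.833 and 0.857 in edgeR. The median over the 11 genes was -0.06, and -0.0016 with the astrocyte score in the fit.

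**Figure D5:**
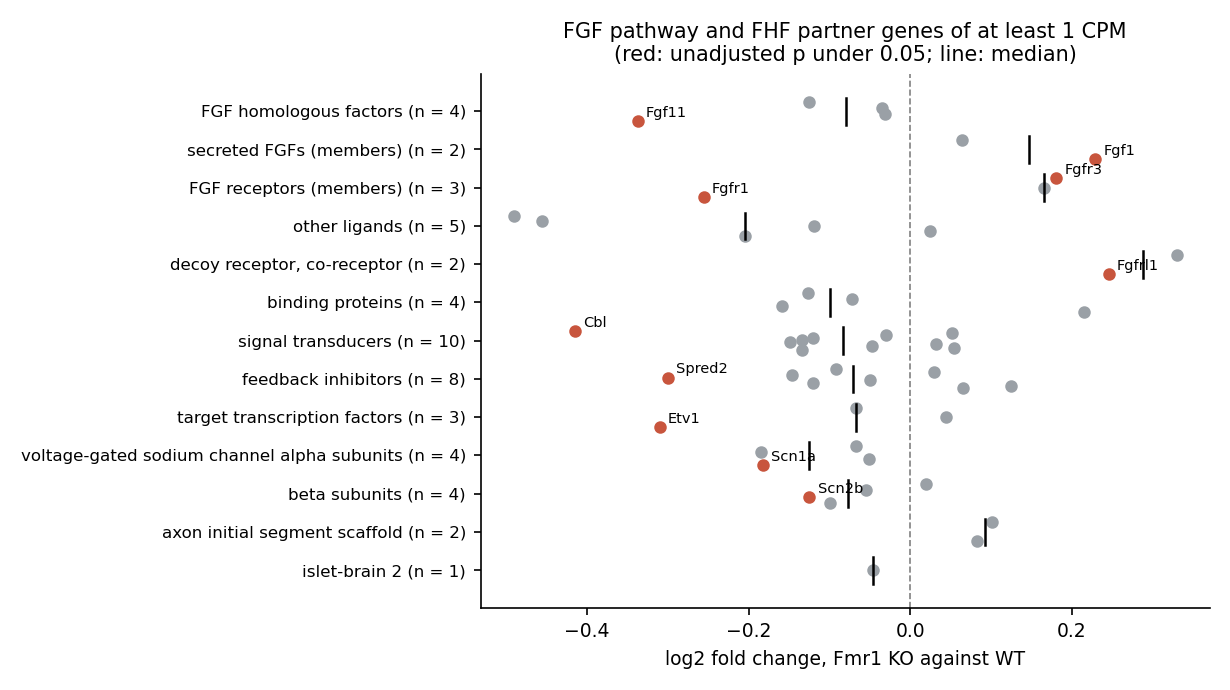
Log2 fold change (edgeR, Fmr1-/y against wild-type) of members, FGF pathway genes and FHF partners with a mean of at least 1 CPM, 1 point per gene grouped by role, with a line at each median and an unadjusted p under 0.05 in red. The named red points are Fgf11, Fgfr1, Cbl, Spred2, Etv1, Scn1a and Scn2b below 0 and Fgf1, Fgfr3 and Fgfrl1 above 0.

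The genes whose pattern over the 12 libraries was most like that of Fgf11 were sought among 13739 genes with a mean log2 CPM of at least 0. Likeness was the mean absolute difference of log2 CPM after each gene was centred on its own mean, for which the median gene had 0.225. The 5 nearest were Inhbb at 0.0762, Rasd2 at 0.0817, Fam217b at 0.0819, Tunar at 0.0865 and Pcdh20 at 0.0906. Inhbb, which encodes an activin and inhibin subunit, had 22.3 ± 0.665 and 17.5 ± 1.42 CPM in wild-type and Fmr1-/y libraries, an adjusted p of 0.181 in edgeR and 0.00135 in DESeq2. The authors had listed Inhbb, like Fgf11, among their differentially regulated genes. Rasd2, which encodes the small G protein Rhes, had 96.0 ± 6.65 and 81.5 ± 9.14 CPM. Of the other members, Fgfr1 was the nearest to Fgf11, at rank 13 with a difference of 0.102, ahead of Fgf13 at rank 1605 and Fgf14 at rank 2179. Fgf12, Fgf1, Fgf9, Fgfr2 and Fgfr3 had ranks from 9055 to 10533. Because the measure includes the genotype difference of each gene, the fold changes of these genes are no independent evidence about Fgf11.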

How the data were processed

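RNA from HA immunoprecipitates of 12 pools was sequenced as stranded, polyadenylated libraries with single reads of 50 bases. The authors aligned reads with TopHat2 2.1.1 and Bowtie2 2.2.8 to mm10, discarded alignments with more than 3 mismatches, and deposited raw counts per gene from HTSeq 0.6.1p1 (union mode, opposite strand). The lanes that libraries shared are not given in the sources used here.

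Genes with at least 15 reads in total were kept and compared in edgeR 4.0.16 (R 4.3.3, TMM, quasi-likelihood F test, no covariate) with Benjamini-Hochberg adjustment over all 17823 genes at 0.05, two-sided. The SE is the log2 fold change divided by the square root of F. Levels are TMM-normalized CPM. Lengths are merged GENCODE exons, matched by Entrez identifier, and coordinates are RefSeq's on GRCm38. Marker sums were compared with exact permutation tests (smallest possible p 0.00216). Alternatives were DESeq2 1.42.0 (current defaults, or the shrunken fold changes of older versions), voom in limma 3.58.1, other size factors, filters and a threshold of 0.1, a replicate block, each library left out, the longest transcript, and marker scores (mean log2 CPM) as covariates. Both tools were tested on simulated counts.

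The members, lists and tests were chosen with earlier results of these data known. Named are the 10 members and Fmr1. From both lists, every gene past the threshold in edgeR or DESeq2 is named, and the 2 lower and 2 higher genes of each with the smallest p. The 5 genes most like Fgf11 complete the rule. Etv4, Etv5, Scn2a1, Scn3a, Scn8a, Wfs1, Ttr, Nudt6, Gm43439, Ctbp2 and the untested genes were named outside it.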

Additional observations from a re-analysis of the deposited data

Results flagged for a closer look

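Fgf1 in wild-type replicate 5 stood apart from its group, at 22.5 CPM where the other 5 wild-type libraries held 27.0 to 29.7 CPM. Its gap to the nearest library was 0.633 of the whole range of the group, over Dixon's 95% critical value for 6 samples. Without it, the log2 fold change of Fgf1 was 0.18 (SE 0.088) in edgeR. That library also had the lowest astrocyte sum, 1855 CPM. Such gaps were examined in 60 groups of 6, of which chance alone would be expected to flag about 3, and this was the only one.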

How the results depend on the processing

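Of 258 comparisons of a member's fold change with an alternative, 249 kept direction and call. Fgf2 had no adjusted p in the DESeq2 fits, so there only its direction was compared. Fgf11 passed the threshold in the 3 DESeq2 fits: -0.34 (adjusted p 0.0383), -0.28 with a fold change prior (0.0383) and -0.34 with a replicate block (0.0249). In these fits the members and the pathway list each had 1 call, and otherwise 0. Fgf12 changed sign with the astrocyte score (0.038), without Fmr1-/y replicates 1 and 2 (0.018, chosen after seeing the data) and with single libraries left out (-0.10 to 0.029, above 0 without Fmr1-/y replicate 3 or wild-type replicate 6). With the CA1 score, also chosen after seeing the data, Fgf13 was at 0.050 and Fgfr2 at -0.047. Over all genes, 4 calls became 84 in DESeq2, 82 with the prior, 146 with DESeq2's block, 2 with the astrocyte score, 1 with the CA1 score, 1 with at least 10 reads in every library, and 2 to 6 with 1 library left out. Etv1 was called in the same 3 DESeq2 fits (-0.31, -0.28 and -0.31). The cause of these differences was not tested. With the longest transcript, wild-type levels per kilobase were 16.8 for Fgf12, 37.5 for Fgf13, 5.36 for Fgf14, 6.89 for Fgf1, 5.79 for Fgf9, 20.8 for Fgfr1, 7.40 for Fgfr2 and 17.2 for Fgfr3.

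Replicate numbers are shared between genotypes, but deviations of same-numbered libraries correlated from -0.08 to 0.09 over all genes. Over genes with a mean log2 CPM above 5, replicates 1, 3 and 4 correlated at 0.38, 0.44 and 0.60, replicate 2 at -0.44, and replicates 5 and 6 at -0.01 and -0.03. Differently numbered libraries were not compared, so these values do not decide whether the numbers mark pairs. No label says that they do, and the main fit used no block. The replicate block left 0 members and 4 genes past the threshold in edgeR, with Fgf11 at -0.34 (adjusted p 0.193). In DESeq2 the adjusted p of Fgfr1 was 0.0584 with the block and 0.119 without it. Fgf2 is limited by depth and was removed by stricter filters.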
